A study of Mus musculus with 19 samples.

Results

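Jarid2 is a mouse gene on chromosome 13, and its CpG methylation in liver was described from every listed site that fell inside it or up to 2 kb beyond its ends (RefSeq, GRCm38.p6, positions 44730774 to 44921643, GeneID 16468). These were 6 CpG sites of the 8525 listed in the authors' 3 deposited tables, or 11 of 12334 table lines. Jarid2 was chosen by its measured SAMe minus placebo and KO minus WT differences in these tables, so its differences are given as a description, with no test beyond the authors' own. The liver DNA came from 5 Mat1a knockout (KO) mice given S-adenosylmethionine (SAMe), 6 Mat1a KO mice given placebo and 8 untreated wild-type (WT) mice, all 10 months old, with treatment lasting 8 weeks according to the study's title. Both KO groups lacked Mat1a, which encodes the liver enzyme that makes SAMe. Cells use SAMe as the source of the methyl group placed on cytosine. The WT mice received neither SAMe nor placebo, so in each WT comparison genotype and the treatment procedure cannot be told apart. Strain, sex, dose and route are not given in the sources used here. Methylation was read by reduced-representation bisulfite sequencing, which sequences short DNA fragments cut at MspI and TaqαI sites. Each table gives differences between group methylation levels in percentage points, without values per animal, levels or read depth. No value below therefore carries an error over animals, and the liver identity of the samples could not be checked against markers. In whole liver, a changed methylation level within cells and a changed mix of cell types cannot be told apart. Which group was subtracted from which is not written in the tables. Differences were read as KO minus WT and as SAMe minus placebo, the usual order of the methylKit package, and under the opposite order every direction turns round together.

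Jarid2 is the founding member of the Jumonji family, but its own Jumonji domain lacks demethylase activity. The protein is an accessory subunit of Polycomb repressive complex 2 (PRC2), which methylates histone H3 at lysine 27 and keeps developmental genes silent. Jarid2 binds DNA and nucleosomes and helps bring PRC2 to CpG-rich targets, and mouse embryos without it have defects of heart, liver and blood formation. Cytosine methylation and PRC2 marking tend to occupy different CpG-rich regions in mammalian genomes.

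The assay reads CpG sites near CCGG (the MspI site) and TCGA (the TaqαI site), so the promoter sequence shows where fragments could arise. RefSeq's table for GRCm38.p6 gives Jarid2 2 transcript starts, at positions 44730774 and 44731271 on the plus strand. The 250 bases before the first start (chr13:44730524-44730773, plus strand) are printed with each CCGG in capitals.

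Jarid2 upstream: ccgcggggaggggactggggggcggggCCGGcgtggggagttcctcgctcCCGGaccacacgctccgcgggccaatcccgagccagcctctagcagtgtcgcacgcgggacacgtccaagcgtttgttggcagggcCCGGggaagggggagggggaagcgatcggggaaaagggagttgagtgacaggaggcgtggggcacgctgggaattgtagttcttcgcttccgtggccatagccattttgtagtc

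This stretch held 3 CCGG, 0 TCGA and 23 CpG, and the 250 bases before the second start held 3 CCGG, 1 TCGA and 22 CpG. Both motifs read the same on either strand and share no bases here. CCGG occurred in 47.1% and TCGA in 18.5% of the 250-base stretches before 32851 transcript starts in the RefSeq table, and the median stretch held 6 CpG. No listed site lay in either Jarid2 window, each running from 250 bases before to 50 bases after a start. Over the windows of all 32851 starts only 97 listed positions fell inside, so an empty window is the usual case. A site that is not listed was either not covered or below the authors' thresholds, so this gives no methylation level for the promoter.

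The SAMe-treated KO livers differed from the placebo-treated KO livers at 5 Jarid2 sites, all higher with SAMe, in the authors' deposited table. Over all coding genes, 0.658% had a listed site in this comparison, and 0.384% had one that was higher with SAMe. Among coding genes of 100 to 300 kb, the length class of Jarid2, the share with a listed site was 2.08%. The 5 sites formed a single run of 23 bp, from position 44869632 to 44869654 of chromosome 13, all on the plus strand and separated by 3, 4, 10 and 5 bp. The run lay inside the gene, 139 kb after the first transcript start and 52.0 kb before the gene's end, at 72.8% of its length. It was 138 kb from the second start, so it was far from both transcript starts given above. Whether it falls in an exon or an intron is not given by the gene table used here.

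SAMe-treated KO livers exceeded placebo-treated KO livers by 32.8 percentage points at position 44869632 (q = 3.27e-06) in the authors' deposited table. Position 44869635 stood at 34.4 (q = 7.69e-07) and position 44869639 at 34.8 (q = 5.15e-07) in the authors' deposited table. Position 44869649 followed at 33.8 and position 44869654 at 33.6, both with q = 9.82e-07 in the authors' deposited table. The 5 values span 1.99 percentage points, with a mean of 33.9 ± 0.75 (SD over 5 sites). This SD is a spread between neighbouring cytosines that can sit on the same reads, and not a spread between mice. The sites are therefore better counted as 1 stretch than as 5 separate observations.

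At the same 5 sites placebo-treated KO livers were lower than WT livers in the authors' deposited table. The difference was −25.9 percentage points at position 44869632 (q = 3.39e-08) and −24.1 at 44869635 (q = 2.62e-07) in the authors' deposited table. It was −26.8 at 44869639 (q = 7.51e-09), −23.9 at 44869649 (q = 2.66e-07) and −24.8 at 44869654 (q = 7.07e-08) in the authors' deposited table. The mean was −25.1 ± 1.25 (SD over 5 sites), and the values span 2.98 percentage points. The size is ordinary for this comparison, whose 6721 listed sites had a median difference of −25.9 in the authors' deposited table.

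None of the 5 sites was listed between SAMe-treated KO and WT livers, and the remaining difference follows by adding the other two. By addition, SAMe-treated KO livers stood above WT livers by 6.97 percentage points at 44869632, 10.2 at 44869635 and 7.96 at 44869639. The sums were 9.96 at 44869649 and 8.86 at 44869654, with a mean of 8.80 ± 1.37 (SD over 5 sites). All 5 lie under the authors' threshold of 20 percentage points, so the sites would be missing from that table whatever their q-value. Placebo-treated KO livers thus had the lowest methylation of the 3 groups at every site of the run. SAMe-treated KO livers had the highest by this sum, but the step from WT to SAMe-treated KO has no listed q-value and is not shown to differ from 0. The listed comparisons share the placebo-treated mice, and no values per mouse show how far each of them contributed.

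**Figure D1:**
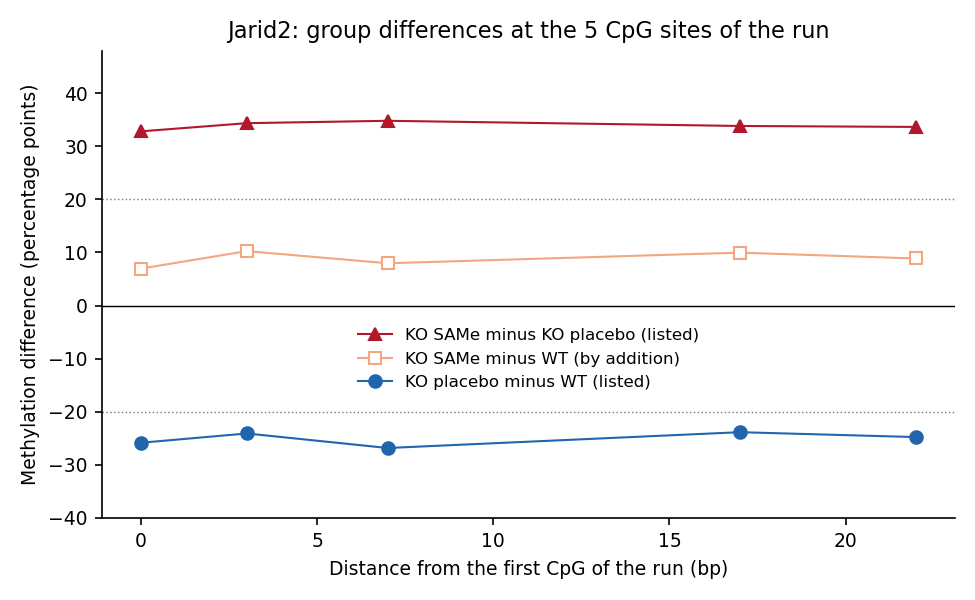
Methylation differences (percentage points) at the 5 CpG sites of the Jarid2 run, against distance in bp from the first site. Triangles (KO SAMe minus KO placebo) lie between 32.8 and 34.8, open squares (KO SAMe minus WT, by addition) between 6.97 and 10.2, circles (KO placebo minus WT) between −26.8 and −23.9. Dotted lines mark the authors' threshold of 20 on either side of 0, and lines between points only guide the eye.

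The tables hold no levels, but a level can only lie between 0 and 100%, which sets limits that depend on the order of subtraction. Read as KO minus WT and SAMe minus placebo, the methylation level of SAMe-treated KO livers was at least 32.8% at 44869632 and at least 34.8% at 44869639. Placebo-treated KO livers could not exceed 67.2% at 44869632 or 65.2% at 44869639. WT livers lay between 25.9 and 93.0% at the first of these sites and between 26.8 and 92.0% at the second. Under the opposite order, SAMe-treated KO livers could not exceed 67.2% at 44869632, placebo-treated KO livers had at least 32.8% there, and WT livers lay between 6.97 and 74.1%.

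The run stood high among the 230 sites listed between the KO groups in the authors' deposited table. Jarid2 was chosen by these values, so this place restates the choice, and the 5 neighbouring sites count as 1 stretch. By absolute difference the run's sites held ranks 3, 4, 5, 7 and 8, where the median absolute difference was 21.9 percentage points. By p-value they held ranks 18 to 34, with p between 3.08e-10 and 3.41e-09 in the authors' deposited table. Joining sites within 1 kb gave 212 runs in this comparison, of which 199 held a single site and 3 held at least 3 sites. Jarid2 had the only run of 5 sites, and no coding gene had more listed sites between the KO groups. The other runs of at least 3 sites lay in the delta opioid receptor gene Oprd1 and the F-box gene Fbxo41. The Oprd1 run held 3 sites with a mean of 21.3 percentage points (chromosome 4, 132113904 to 132113919), and the Fbxo41 run 3 sites with a mean of 20.8 (chromosome 6, 85478324 to 85478478), in the authors' deposited table. Both were higher with SAMe and close to the threshold of 20.

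**Figure D2:**
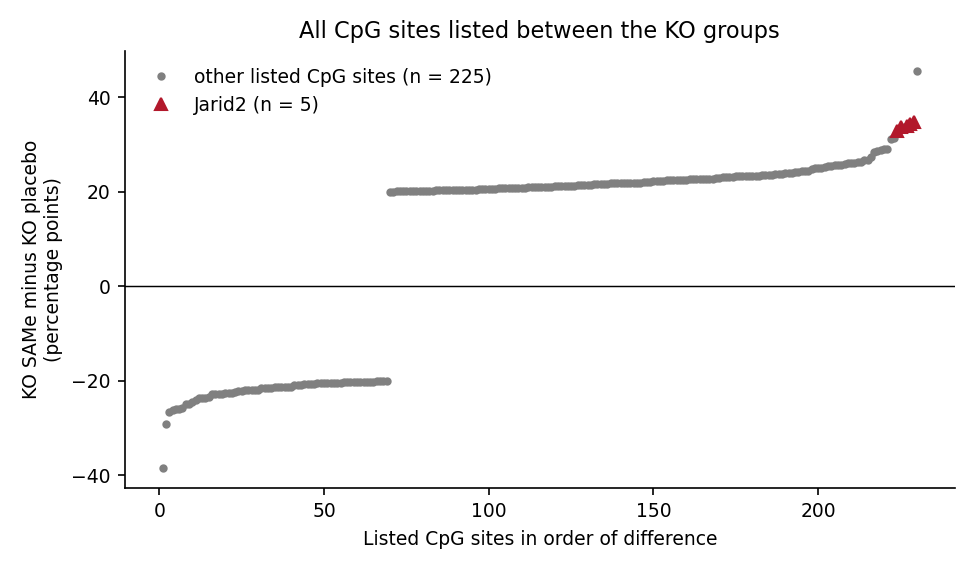
KO SAMe minus KO placebo (percentage points) at all 230 listed sites, in order of difference. The 5 Jarid2 sites (triangles) lie between 32.8 and 34.8, near the upper end, and no site is listed between −20 and 20.

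The sixth Jarid2 site lay apart from the run, at position 44755748 on the minus strand, 24974 bp after the first transcript start and 114 kb before the run. Placebo-treated KO livers were lower than WT livers there by −22.8 percentage points (q = 2.12e-14) in the authors' deposited table. Its p-value of 4.44e-16 was smaller than that of any site in the run, although its difference was the smallest of the 6. It was listed in neither of the other tables, so its level under SAMe relative to placebo or WT is unknown. The nearest listed sites outside the gene were 70.4 kb before its start and 56.8 kb after its end.

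Jarid2 thus had 6 listed sites between placebo-treated KO and WT livers, all lower in KO, and 0 between SAMe-treated KO and WT livers. Of the coding genes, 12.5% had a listed site in the first comparison and 10.8% in the second. Jarid2 is long (190870 bp), and long genes were listed more often, with 26.1% of coding genes of 100 to 300 kb having a site in the first comparison and 21.7% in the second. Genes with a site had a median of 1 in the first comparison, and 0.48% of coding genes had at least 6. A run of 5 or more sites between placebo-treated KO and WT livers occurred 82 times. Of the 81 such runs outside Jarid2, 79 had at least 1 site also listed between SAMe-treated KO and WT livers, and 2 had none. A site listed between the KO groups occurred in 2 of the 81. In those 79 runs the SAMe minus placebo difference, averaged over the sites where it is known, was from −7.76 to 17.8 percentage points with a median of −0.40, where the Jarid2 run had 33.9. Sites enter those averages mostly because they passed in both WT comparisons, which favours small differences between the KO groups.

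Within 1 Mb of Jarid2 the authors' tables listed 14 positions, including the 6 of Jarid2. Outside the gene, 8 were listed between placebo-treated KO and WT livers, 3 between SAMe-treated KO and WT livers and 0 between the KO groups. Dtnbp1, which encodes the dysbindin subunit of a lysosome-related organelle complex, lies 0.435 kb beyond the end of Jarid2 and had 1 site at −22.4 percentage points for placebo-treated KO against WT in the authors' deposited table. Atxn1, the ataxin-1 gene, had 3 sites between −32.3 and −23.4 in that comparison in the authors' deposited table. At 2 of these the SAMe minus placebo difference was known by addition, at −0.08 and 4.88. A position 318 kb before Jarid2, near no coding gene, stood at −40.9 for SAMe-treated KO and −34.8 for placebo-treated KO, each against WT, in the authors' deposited tables. The coding genes Cd83, Mylip and Gmpr had 0 listed sites, as did most coding genes. Over all 8525 listed positions, 2.70% were listed between the KO groups, so the count of 0 among 8 says little about the neighbourhood.

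**Figure D3:**
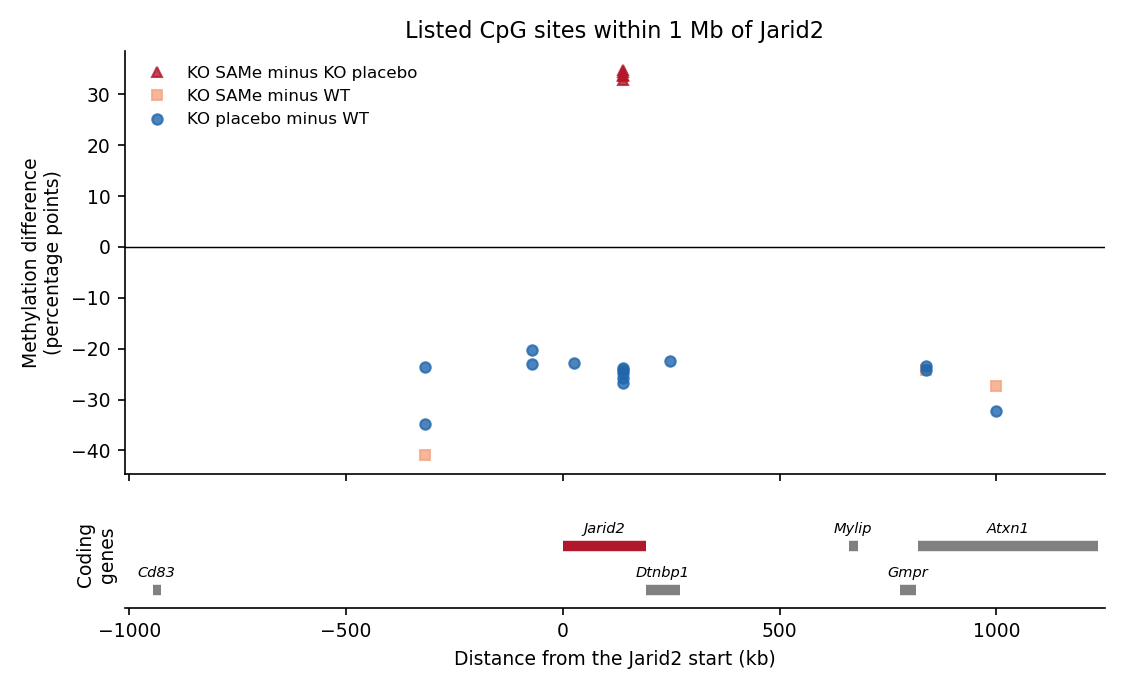
Upper panel, every listed difference (percentage points) within 1 Mb of Jarid2 against distance in kb from the Jarid2 start. Lower panel, coding genes of the region. The 5 triangles above 0 (KO SAMe minus KO placebo) are the Jarid2 run, and all other listed differences are below −20.

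Genes with the most similar pair of differences were sought among 1776 coding genes in which both KO placebo minus WT and SAMe minus placebo were listed or followed by addition. Likeness was the Euclidean distance in percentage points between a gene's pair of means over sites and that of Jarid2. The measure rests on 3 group comparisons that share mice, and each of the 5 nearest genes had 1 site. Ehd2, a membrane-remodelling ATPase of caveolae, was nearest at a distance of 5.60. Its SAMe minus placebo difference was 28.7 and its KO placebo minus WT difference −22.9 in the authors' deposited tables, with 5.88 for SAMe-treated KO minus WT by addition. Vmn2r11, a vomeronasal receptor gene, followed at 9.47, with 24.4 for SAMe minus placebo and −24.4 for KO placebo minus WT in the authors' deposited tables. Grin2a, an NMDA receptor subunit gene, lay at 9.56, with 25.1 and −21.3 for the same differences in the authors' deposited tables. Adarb2, of the RNA-editing deaminase family, lay at 9.72 with 24.3 and −23.7, and the homeobox gene Meis2 at 9.72 with 24.3 and −26.4 in the authors' deposited tables. All 5 had the low point in placebo-treated KO livers, which follows from choosing them by closeness to Jarid2 and is no separate result. Their SAMe minus placebo differences were smaller than that of Jarid2, which was itself chosen by this value.

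**Figure D4:**
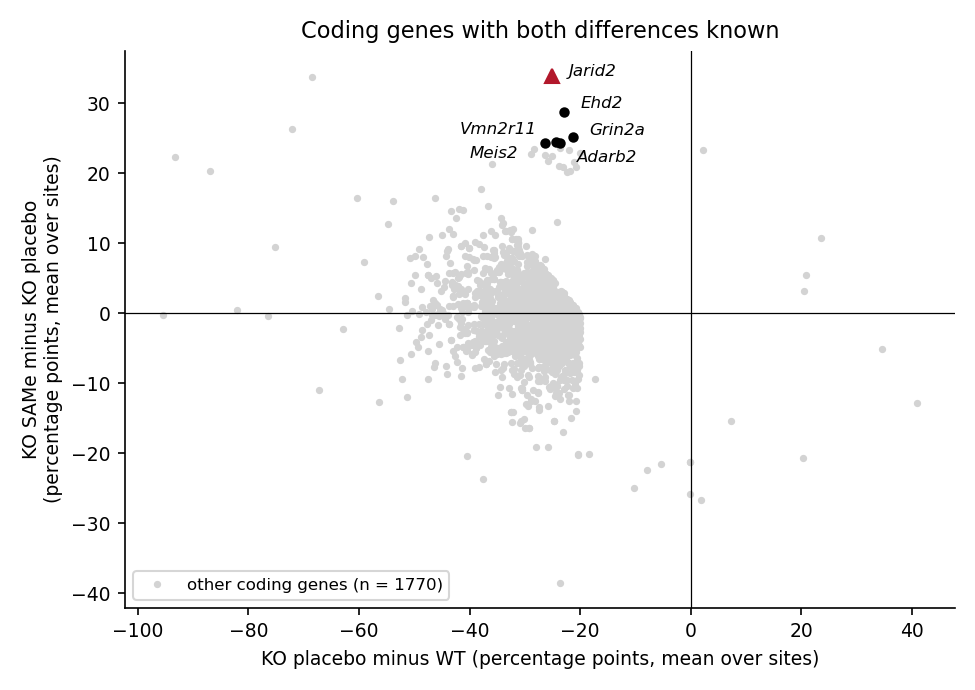
SAMe minus placebo difference against KO placebo minus WT difference (percentage points, mean over the gene's sites) for the 1776 coding genes with both known. Jarid2 (triangle) stands at 33.9 and −25.1 and the 5 nearest genes (black) at 24.3 to 28.7 on the vertical axis. Gaps around the cloud come from the listing threshold of 20, and the axes share the placebo-treated mice.

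Other Polycomb genes and related genes were taken from lists of 45 genes, all of which matched the gene table and which did not include Jarid2. The lists held 13 PRC2 genes, 21 genes of a second Polycomb complex (PRC1), 7 Polycomb antagonists and 4 Jumonji relatives. Between the KO groups, 0 of the 45 had a listed site, where 0.658% of all coding genes had one, so a list of this size would often hold none. Between SAMe-treated KO and WT livers 13 had a site, and between placebo-treated KO and WT livers 15 had one, 28.9% and 33.3% of the list beside 10.8% and 12.5% of all coding genes. Every such site was lower in KO, with a median of −27.8 percentage points under SAMe and −26.6 under placebo in the authors' deposited tables, beside −26.6 and −25.9 over all listed sites. The lists were not matched on gene length or CpG coverage, so these shares are a description.

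Among the 13 other PRC2 genes, 2 had a site between SAMe-treated KO and WT livers and 3 between placebo-treated KO and WT livers. Epop, an accessory subunit of the other PRC2 variant than the one holding Jarid2, had 5 sites from −38.9 to −23.8 percentage points for SAMe-treated KO and 3 from −37.4 to −27.6 for placebo-treated KO, each against WT, in the authors' deposited tables. Lcor, whose locus also encodes a PRC2 accessory protein, had 1 site at −20.1 for SAMe-treated KO and another at −22.6 for placebo-treated KO in the authors' deposited tables. Phf19, a reader of methylated histone H3, had 1 site at −24.1 for placebo-treated KO in the authors' deposited table. The catalytic genes Ezh1 and Ezh2 and the core genes Eed, Suz12, Rbbp4 and Rbbp7 had no listed site in any comparison. Nor had Aebp2, which encodes the subunit that joins PRC2 together with Jarid2. Most coding genes had none either, with 12.5% listed between placebo-treated KO and WT livers and 10.8% between SAMe-treated KO and WT livers.

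Of 21 PRC1 genes, which encode the complex that ubiquitinates histone H2A, 10 had a site between SAMe-treated KO and WT livers and 9 between placebo-treated KO and WT livers. Cbx8, a reader of methylated H3, had 4 sites from −40.2 to −28.4 for SAMe-treated KO and from −43.3 to −29.6 for placebo-treated KO in the authors' deposited tables. Pcgf2, a partner of the ubiquitin ligase, had 5 sites from −39.1 to −22.9 for SAMe-treated KO and 1 at −33.0 for placebo-treated KO in the authors' deposited tables. Kdm2b, which brings a PRC1 variant to CpG islands, had 1 site at −27.0 for SAMe-treated KO and 4 from −25.7 to −21.6 for placebo-treated KO in the authors' deposited tables. Of 7 Polycomb antagonists, 1 had a site between SAMe-treated KO and WT livers and 3 between placebo-treated KO and WT livers. The deubiquitinase gene Bap1 had 2 sites at −31.7 and −26.2 for SAMe-treated KO and −32.7 and −26.1 for placebo-treated KO in the authors' deposited tables. The H3K27 demethylase gene Kdm6b had 2 sites, the lower at −31.3 for placebo-treated KO, in the authors' deposited table. The 4 Kdm5 genes, Jumonji relatives that do demethylate histones, had 0 sites. Of all coding genes, 12.5% had a site between placebo-treated KO and WT livers and 10.8% between SAMe-treated KO and WT livers. A list of 4 genes would therefore often hold none.

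The SAMe minus placebo difference could be obtained by addition at 17 sites in 10 of these list genes. It was from −7.51 to 5.62 percentage points with a median of 0.39, where the Jarid2 run had 32.8 to 34.8. These 17 sites had passed the threshold on the same side in both WT comparisons, whereas the Jarid2 sites were listed between the KO groups directly.

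**Figure D5:**
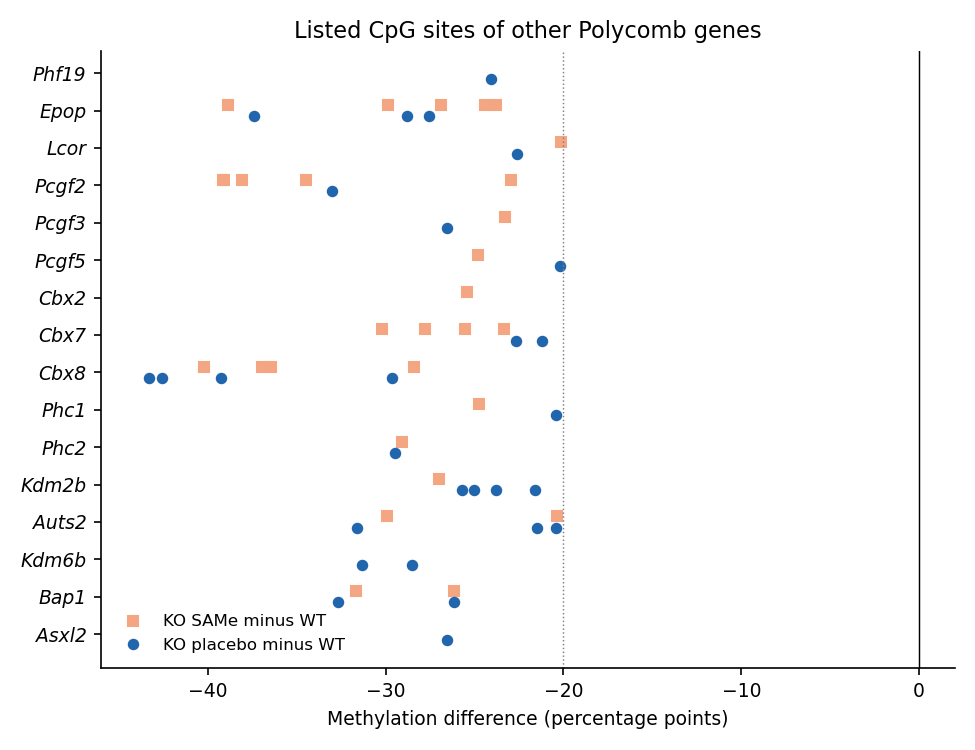
Listed CpG sites of the other Polycomb genes and Polycomb antagonists with any site, as methylation difference (percentage points) from WT. Squares are SAMe-treated KO and circles placebo-treated KO, the dotted line marks the threshold of −20, and all sites lie between −43.3 and −20.1.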

How the data were processed

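Liver DNA of 19 mice was compared by the authors in 3 groups. CASAVA 1.8.2, Trim Galore, Bismark, methylKit and build mm10 come from the labels, per the submitters' processing notes, without roles or settings. The deposited tables hold 1 CpG site per line, with a p-value and a q-value from the authors' comparison, whose test is not given in the sources used here, and a methylation difference in percentage points. Sites were listed only where the difference exceeded 20 in either direction, with q-values up to 0.0495. No values per animal were used, so depth is unknown, no replicate spread or interval could be given, and p-values are the authors' own. At 26 sites in all 3 tables, the differences added up within 1e-07, so a missing difference was obtained by addition. Sites were assigned to 21887 RefSeq coding genes (GRCm38.p6, which shares mm10 coordinates), with 2 kb at either end, and joined into runs within 1 kb, using Python 3.11.15 and pandas 2.3.3. Assignment, joining and addition were tested on simulated data. Where a listed position fell in a RefSeq promoter window, 97 of 97 were a CpG on the listed strand. Named were all Jarid2 sites, list genes with sites, coding genes within 1 Mb, the 5 genes most like Jarid2, and genes with 3 or more sites in a run between the KO groups. Not every list gene is described. Jarid2, the lists and the rules were chosen with earlier results of these data known. Alternatives were other windows, thresholds and joining distances.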

Additional observations from a re-analysis of the deposited data

Results flagged for a closer look

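At the 5 sites of the Jarid2 run the difference from WT depended on which KO group was compared, as tested by the authors between SAMe-treated and placebo-treated KO livers. In the authors' deposited table SAMe minus placebo was 32.8 percentage points at 44869632, 34.4 at 44869635, 34.8 at 44869639, 33.8 at 44869649 and 33.6 at 44869654. Jarid2 was chosen for these values, the sites lie within 23 bp, and no WT mice received SAMe or placebo, so they count as 1 described pattern. Whether single animals carry it was not tested.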

How the results depend on the processing

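A stricter absolute difference of at least 25 percentage points left 2 of the 6 Jarid2 sites between placebo-treated KO and WT livers, because fewer sites pass. The 5 sites between the KO groups all passed it. The same cutoff left 9 of 13 Polycomb list genes with a site between SAMe-treated KO and WT livers and 10 of 15 between placebo-treated KO and WT livers. A window of 0 kb left 12 and 13, in the same order. The share of all coding genes at these settings was not computed, so whether the list kept its higher share is unknown. Windows of 0 and 10 kb and q below 0.01 left the Jarid2 counts unchanged, but they could not have changed them. All 6 sites lay inside the gene, and the nearest listed sites outside it were 56.8 and 70.4 kb away. The largest q-value of a Jarid2 site was 3.27e-06, so these settings are no check of stability. Joining within 100 bp or 5 kb could not change a run of 23 bp that lies 114 kb from the next Jarid2 site, and counts of 0 cannot fall under stricter settings, so these say nothing about stability. The median over the 5 sites was 33.8 for SAMe minus placebo and −24.8 for KO placebo minus WT. No paired analysis was possible because the tables hold group comparisons without values per animal, and for the same reason no mouse could be left out. Depth is unknown, so the precision of each difference could not be given.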

Other observations

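The tables keep the strands of a CpG apart. Of the 230 sites listed between the KO groups, 0 had the cytosine of the same CpG on the other strand listed, and 0.684% of the 6721 sites between placebo-treated KO and WT livers did. The 5 CpG of the Jarid2 run were likewise listed on the plus strand only, so each rests on reads of 1 strand as far as the tables show.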
